A study of Mus musculus with 28 samples.

Results

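The genes described here are 10 receptors of pancreatic islets: Glp1r, Gipr, Gcgr, Galr1, Adra2a, Ffar1, Gpr119, Cckar, Cckbr and Sstr3. They were taken by name, in a list chosen with earlier results of these data known. All 10 were among the 14219 genes of the table, and all 10 were among the 13591 that passed the filter of at least 1 CPM (reads scaled to the library size) in at least 6 libraries. Of the 10, 9 stood at 1 CPM or more in every library, while Cckbr was under 1 CPM in 22 of 28.

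RNA was sequenced from islets of 28 male mice aged 10 to 12 weeks on a C57Bl6 and 129sv strain background, with 1 library per mouse. All mice carried floxed Klf6 alleles. Control mice were Klf6flox/flox;Ins1+/+, and βKlf6KO mice were Klf6flox/flox;Ins1Cre/+, in which Cre is expressed from the Ins1 locus and so acts in β cells. Mice received saline (6 control, 6 βKlf6KO) or S961 (8 control, 8 βKlf6KO), a peptide that blocks the insulin receptor. Islets were picked by hand after Liberase digestion of the pancreas and recovered overnight in culture before RNA was taken, so each library mixes β cells with the other cells of the islet, in which the Ins1-driven Cre is not active. In such bulk samples, fewer cells of a type and less RNA per cell cannot be told apart.

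Islet hormone release is set by G protein-coupled receptors on the surface of the endocrine cells. Receptors coupled to Gs raise cyclic AMP and amplify glucose-stimulated insulin release. These include the receptors of the incretins, the gut hormones glucagon-like peptide 1 and glucose-dependent insulinotropic polypeptide. Receptors coupled to Gi lower cyclic AMP and brake release, and those coupled to Gq act through calcium and protein kinase C.

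The targeted gene was examined first. Klf6 RNA differed by -0.03 ± 0.29 on the log2 scale (SE) between libraries labelled βKlf6KO and control after saline and by 0.28 ± 0.25 after S961, with limma adjusted p of 0.974 and 0.517. No source used here says which exons Cre removes, and the values cover the whole gene. The log2 ratio of Ins1 to Ins2 RNA, where 1 Ins1 allele carries Cre in βKlf6KO mice, had a median of -1.78 in control saline, -1.25 in βKlf6KO saline, -1.27 in control S961 and -2.16 in βKlf6KO S961 libraries. Neither measure therefore followed the genotype labels in both treatments, and groups below are called by their labels. In addition, 2 libraries labelled control S961 (replicates 4 and 6) had Mki67, a proliferation marker, at 4.18 and 4.35 log2 CPM, within the 4.03 to 4.83 of the libraries labelled βKlf6KO saline. Each library held 28868638 to 45001633 reads over the genes of the table. Ins1 and Ins2 were abundant throughout (at least 12.05 log2 CPM for Ins1 and 12.31 for Ins2), but Ins2 varied widely among control libraries. It ran from 13.2 to 16.7 log2 CPM after saline and from 12.3 to 17.2 after S961. The lowest values were those of control saline replicate 4 and control S961 replicate 2. Markers of exocrine, stromal and immune cells were also present, as given beside the results they move with.

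In libraries labelled control saline, the fatty acid receptor gene Ffar1 had the highest level per transcript length and the gastrin receptor gene Cckbr the lowest. Mean levels, in CPM per kilobase of merged exons, were 33.4 ± 4.31 (SD, n = 6) for Ffar1, 22.5 ± 5.87 for Glp1r, 22.2 ± 4.79 for Sstr3, 19.95 ± 5.91 for Gpr119, 14.4 ± 1.19 for Adra2a, 12.3 ± 3.48 for Galr1, 5.82 ± 2.90 for Cckar, 3.24 ± 1.29 for Gcgr, 3.05 ± 0.26 for Gipr and 0.234 ± 0.15 for Cckbr. Neighbours in this order had overlapping ranges, except that Ffar1 stood above Glp1r and Gipr above Cckbr in every library with no overlap. Ffar1 headed the order and Cckbr closed it in all 4 labelled groups. Galr1 ranked above Cckar in 3 groups and below it in βKlf6KO S961, where Cckar averaged 10.8 ± 7.75 and Galr1 6.63 ± 1.15 CPM per kilobase (n = 8), with ranges that overlapped.

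On the build GRCm38, per GENCODE M21, these protein-coding genes lie apart on the genome. Glp1r (ENSMUSG00000024027) is on chromosome 17 at 30901817 to 30940791, plus strand, and Gipr (ENSMUSG00000030406) on chromosome 7 at 19156061 to 19166127, minus strand. Gcgr (ENSMUSG00000025127) is on chromosome 11 at 120530699 to 120538986, plus strand. Ffar1 (ENSMUSG00000044453) is on chromosome 7 at 30857390 to 30861564, minus strand, and Gpr119 (ENSMUSG00000051209) on chromosome X at 48667979 to 48674478, minus strand. Adra2a (ENSMUSG00000033717) is on chromosome 19 at 54044151 to 54048982, plus strand, and Sstr3 (ENSMUSG00000044933) on chromosome 15 at 78537008 to 78544685, minus strand. Cckar (ENSMUSG00000029193) is on chromosome 5 at 53697776 to 53707705, minus strand, and Cckbr (ENSMUSG00000030898) on chromosome 7 at 105425731 to 105470898, plus strand. Galr1 is ENSMUSG00000024553. Gcgr overlaps Gm11789 on the opposite strand. No source used here says how strand was used in counting, so reads of that pair cannot be told apart, while the other 9 overlap no gene of the table.

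**Figure D1:**
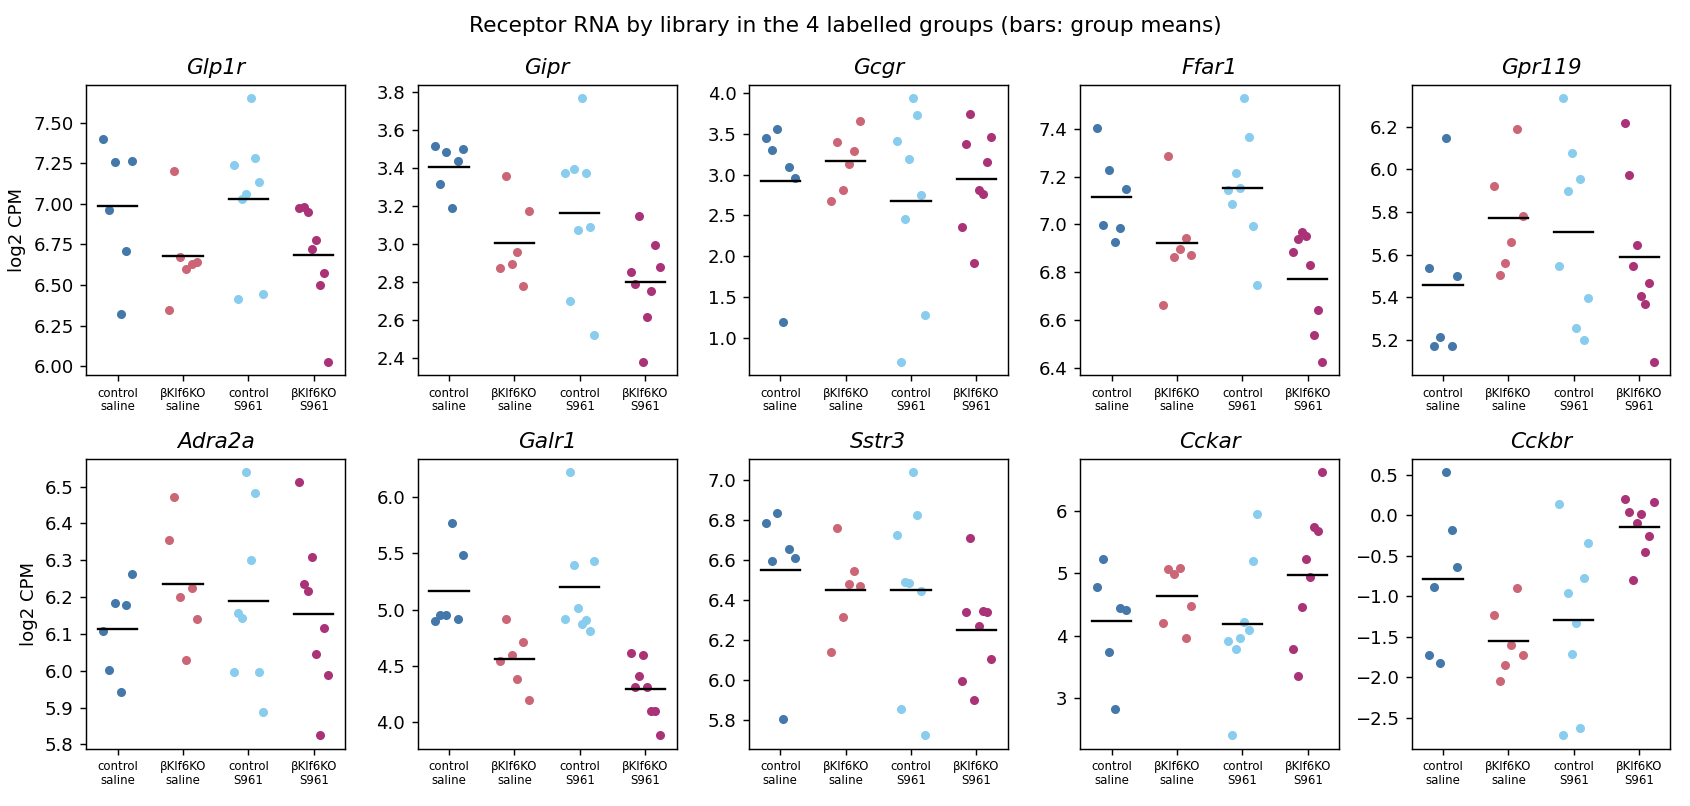
Each panel plots 1 receptor gene, with log2 CPM on the y axis (scaled per panel) and the 4 labelled groups on the x axis; each point is 1 library (mouse) and each bar a group mean. In the Galr1 panel all 8 βKlf6KO S961 libraries, at 3.88 to 4.61, lie below the 8 control S961 libraries, at 4.81 to 6.23.

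The labels pose the question of which genes, here which receptors, differ between the labelled genotypes. After saline, 0 of the 10 passed limma's test at an adjusted p below 0.05, against 2.78% of all 13591 genes. An unadjusted p below 0.05 was found for 2 of the 10 (Galr1 and Gipr), and for 1953 of all 13591 genes. After S961, 2 of the 10 passed, both lower in libraries labelled βKlf6KO (Galr1 and Ffar1), against 4.36% of all genes in either direction and 2.01% lower. The median difference over the 10 was -0.14 after saline and -0.16 after S961, beside medians over all genes of -0.00050 and 0.02. Differences below are libraries labelled βKlf6KO minus control, in log2 units with their SE.

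**Figure D2:**
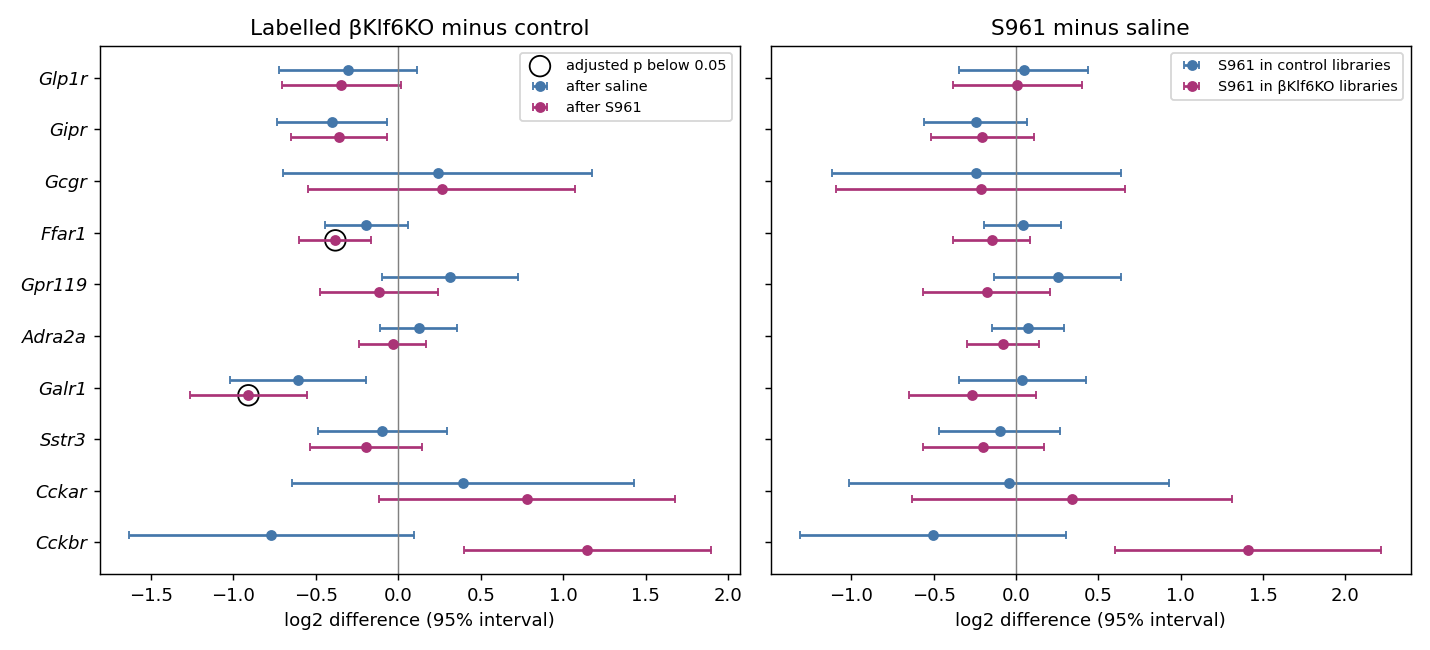
The x axes give log2 differences with 95% intervals from limma for each receptor (y axis). The left panel shows libraries labelled βKlf6KO minus control after saline and after S961, and the right panel S961 minus saline in each labelled genotype; rings mark adjusted p below 0.05, which only Galr1 and Ffar1 reached, both after S961.

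Galr1 encodes a galanin receptor coupled to Gi, through which the neuropeptide galanin inhibits insulin release. After S961 its log2 CPM had a lowest, median and highest value of 4.81, 4.96 and 6.23 in control libraries and 3.88, 4.31 and 4.61 in βKlf6KO libraries. The groups did not overlap, as was so for 0.28% of all genes in this direction. The difference was -0.91 ± 0.17 (adjusted p = 0.00631, 95% interval -1.27 to -0.55), a level at 53.3% of control, and its p ranked 36 among 13591 genes. After saline the corresponding values were 4.90, 4.95 and 5.77 in control and 4.19, 4.57 and 4.92 in βKlf6KO libraries. All 6 βKlf6KO saline libraries lay under the control mean, but the lowest control value fell just under the highest βKlf6KO value. The saline difference of -0.61 ± 0.20 did not pass (adjusted p = 0.108). It passed without control S961 replicate 2, the library of highest Galr1 (adjusted p = 0.0308), which enters this comparison only through the shared estimate of spread.

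The Galr1 difference after S961 passed with each of the 28 libraries left out in turn (adjusted p 0.00379 to 0.0199). Within the 4 sequencing lanes named in the labels, of 2 libraries against 2, it was -0.36, -1.24, -0.90 and -1.13. Without control S961 replicates 4 and 6, the libraries of high Mki67, it was -0.99 (adjusted p = 0.00179). With the means of the lymphocyte and macrophage marker lists as covariates it was -0.57 and did not pass (adjusted p = 0.0839), in a fit in which 54 genes passed in all. With the mean of 11 β-cell markers as a covariate it was -0.88 and did not pass (adjusted p = 0.112), a fit in which 0 of 13591 genes passed with limma and 5537 had an unadjusted p below 0.05. The lymphocyte mean used as a covariate, here and below, lay near the floor. Of its 8 genes, 4 had 0 reads in some library of each S961 group. It also moved with the label, with medians of -3.68 and 0.90 log2 CPM in control and βKlf6KO saline libraries. After S961 these medians were -3.58 and -2.82.

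Adra2a and Sstr3, the other receptors of the braking group, did not pass for the label under either treatment. Adra2a encodes the α2A-adrenergic receptor, through which noradrenaline suppresses insulin release. Its log2 CPM ran from 5.89 through a median of 6.15 to 6.54 in control S961 libraries and from 5.82 through 6.17 to 6.51 in βKlf6KO S961 libraries. These ranges nearly coincided, and the difference of -0.03 ± 0.10 had a 95% interval of -0.24 to 0.17 (adjusted p = 0.850). After saline it was 0.12 ± 0.11 (adjusted p = 0.713). Sstr3 encodes a somatostatin receptor that is carried on primary cilia. It differed by -0.10 ± 0.19 after saline and -0.20 ± 0.17 after S961 (adjusted p = 0.888 and 0.481), with overlapping groups in both.

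Glp1r and Gipr, the receptors of the incretins, both stood lower in libraries labelled βKlf6KO under both treatments without passing the test. Glp1r had a lowest, median and highest log2 CPM of 6.32, 7.11 and 7.40 in control saline, 6.34, 6.63 and 7.20 in βKlf6KO saline, 6.41, 7.10 and 7.65 in control S961 and 6.03, 6.75 and 6.98 in βKlf6KO S961 libraries. Groups overlapped, although all 8 βKlf6KO S961 libraries were below the control S961 mean. The differences were -0.31 ± 0.20 (adjusted p = 0.562) and -0.34 ± 0.18 (adjusted p = 0.240).

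Gipr had a lowest, median and highest log2 CPM of 3.19, 3.46 and 3.51 in control saline, 2.78, 2.93 and 3.36 in βKlf6KO saline, 2.52, 3.23 and 3.77 in control S961 and 2.38, 2.82 and 3.14 in βKlf6KO S961 libraries. All 6 and all 8 βKlf6KO libraries were below the mean of their control group, and the ranges overlapped. The differences were -0.40 ± 0.16 (adjusted p = 0.215) and -0.36 ± 0.14 (adjusted p = 0.128), or 75.7% and 78.0% of control. Without control S961 replicate 8 the S961 difference was -0.45 and passed (adjusted p = 0.0419). Of 18 other settings of the limma fit, it passed in 5 (lowest adjusted p = 0.00112) and changed sign in 1. The saline difference passed in 3 of 18 (lowest adjusted p = 7.25e-04).

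Gcgr, the receptor gene for glucagon and a relative of both, differed by 0.24 ± 0.46 after saline and 0.26 ± 0.39 after S961 (adjusted p = 0.884 and 0.693). Its spread was wide: control S961 libraries ran from 0.71 to 3.94 log2 CPM and control saline libraries from 1.19 to 3.56. Without control saline replicate 4, the lowest of its group, the saline difference was -0.11, and without control S961 replicate 2 the S961 difference was -0.02, so the direction of Gcgr rested on single libraries.

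Ffar1 encodes a Gq-coupled receptor for long-chain fatty acids that enhances insulin release. After S961 its lowest, median and highest log2 CPM were 6.75, 7.15 and 7.53 in control and 6.43, 6.86 and 6.97 in βKlf6KO libraries. All 8 βKlf6KO libraries were below the control mean, and the ranges overlapped. The difference was -0.38 ± 0.11 (adjusted p = 0.0417), a level at 76.8% of control, with within-lane values of -0.23, -0.42, -0.54 and -0.33. After saline it was -0.19 ± 0.12 (adjusted p = 0.529). The call after S961 was a narrow one. It was lost when any 1 of 10 libraries was left out: βKlf6KO saline replicate 3 or 4, control S961 replicate 2, 3, 5 or 6, or βKlf6KO S961 replicate 5, 6, 7 or 8 (adjusted p 0.0504 to 0.0965). It was also lost without control S961 replicates 4 and 6 together (adjusted p = 0.0648), and with only the S961 groups in the fit (adjusted p = 0.131). The call held with each library centred on its median. Other scalings ended it: the difference was -0.26 with quantile normalization (adjusted p = 0.259) and -0.34 with no scaling factor (adjusted p = 0.0913). With the lymphocyte and macrophage means as covariates it was -0.39 (adjusted p = 0.0829).

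Gpr119, a Gs-coupled receptor for lipid amides, differed by 0.31 ± 0.20 after saline and -0.12 ± 0.17 after S961 (adjusted p = 0.539 and 0.689). Its ranges overlapped in both comparisons, at 5.17 to 6.15 and 5.50 to 6.19 log2 CPM in control and βKlf6KO saline libraries.

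The cholecystokinin receptors couple to Gq, and their RNA stood at very different levels. Cckar differed by 0.39 ± 0.51 after saline and 0.78 ± 0.44 after S961 (adjusted p = 0.818 and 0.290), with libraries from 2.41 to 6.62 log2 CPM. Cckbr, the gastrin and cholecystokinin B receptor, was counted with 9 to 48 reads in control saline, 9 to 16 in βKlf6KO saline, 4 to 32 in control S961 and 23 to 43 in βKlf6KO S961 libraries. Every library was above the 3 reads that a count of 0 allows, but 22 were below 1 CPM. Cckbr reached 1 CPM only in control saline replicate 4, control S961 replicate 1 and βKlf6KO S961 replicates 1, 2, 5 and 8. These just met the filter of 6 libraries. The labelled genotype difference was -0.77 ± 0.42 after saline (adjusted p = 0.434) and 1.15 ± 0.36 after S961 (adjusted p = 0.0640). All 8 βKlf6KO S961 libraries were above the control S961 mean, and the groups overlapped. Cckbr passed the filter mostly through βKlf6KO S961 libraries, the higher group here. Neither that count nor the calls with libraries left out, given next, therefore count as support for a difference. The S961 difference passed without control saline replicate 4 (adjusted p = 0.0480) or without control S961 replicate 1 (0.0291) or 8 (0.0418). It fell to 0.85 (adjusted p = 0.142) without control S961 replicates 4 and 6 together.

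A comparison of labelled genotypes averaged over both treatments, chosen after seeing the data, used all 28 libraries at once. In it, 3 of the 10 receptors passed, all lower in libraries labelled βKlf6KO, against 15.3% of all genes in either direction and 7.64% lower. These were Galr1 at -0.76 ± 0.13 (adjusted p = 3.89e-04), Ffar1 at -0.29 ± 0.08 (adjusted p = 0.0174) and Gipr at -0.38 ± 0.11 (adjusted p = 0.0178). The values for Galr1 and Ffar1 hold the S961 libraries already described, so they are not independent of them. All 3 calls held with each library left out in turn (adjusted p of at most 0.0364), but none held under every setting. With the lymphocyte and macrophage means as covariates Galr1 stood at -0.34 (adjusted p = 0.244) and Ffar1 at -0.21 (adjusted p = 0.312). With the β-cell mean as a covariate Galr1 stood at -0.73 (adjusted p = 0.0694), Gipr at -0.0037 (adjusted p = 0.985) and Ffar1 at 0.086 (adjusted p = 0.458). Ffar1 was also lost with quantile normalization, at -0.18 (adjusted p = 0.243), and both Ffar1 (adjusted p = 0.0628) and Gipr (adjusted p = 0.0509) with no scaling factor.

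The design also sets S961 against saline within each labelled genotype. None of the 10 passed in control or in βKlf6KO libraries, nor for the difference of the responses, and the share of all genes that passed with limma was 0% in all 3 comparisons. At an unadjusted p below 0.05, 104, 413 and 350 genes were found in those comparisons. The counts among the 10 receptors were 0, 1 and 1, each time Cckbr. In control libraries the 10 differences ran from -0.51 for Cckbr to 0.25 for Gpr119, and Gipr stood at -0.25 ± 0.15 (adjusted p = 0.973). In βKlf6KO libraries they ran from -0.27 for Galr1 to 1.41 for Cckbr, and Gipr stood at -0.20 ± 0.15 (adjusted p = 0.9997).

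Cckbr was higher after S961 in every βKlf6KO library than in any βKlf6KO saline library. Log2 CPM ran from -2.04 through a median of -1.66 to -0.90 after saline and from -0.80 through -0.04 to 0.21 after S961. The groups did not overlap, as was so for 0.0809% of all genes in this direction, and the p ranked 8 among 13591. Cckbr passed the filter mostly through βKlf6KO S961 libraries, the higher group here. Neither the lack of overlap nor the rank therefore counts as support for a difference. The difference of 1.41 ± 0.39 did not pass after adjustment over all genes (adjusted p = 0.9997). In control libraries it was -0.51 ± 0.39, and the difference of the responses was 1.91 ± 0.56, which did not pass either (unadjusted p = 0.00194). With values under 1 CPM set to 1 CPM, the βKlf6KO difference was 0.05, since most of these values lie under that level.

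The balance of the incretin receptors was followed as the log2 ratio of Glp1r to Gipr CPM, in which transcript length shifts every library alike. It was 3.58 ± 0.31 (SD, n = 6) in control saline, 3.68 ± 0.18 (n = 6) in βKlf6KO saline, 3.87 ± 0.14 (n = 8) in control S961 and 3.89 ± 0.40 (n = 8) in βKlf6KO S961 libraries. In control libraries it ran from 3.13 to 3.89 after saline and from 3.64 to 4.05 after S961, with overlap. That S961 difference of 0.29 had an exact two-sided permutation p of 0.0240, or 0.0959 adjusted over the 4 comparisons made, and so did not pass. It passed without control saline replicate 1 (adjusted p = 0.0342) or control S961 replicate 3 (0.0443). The S961 difference was 0.21 in βKlf6KO libraries (exact permutation p = 0.250, adjusted 0.5002). The labelled genotype differences were 0.10 after saline and 0.01 after S961 (exact permutation p = 0.524 and 0.929, adjusted 0.698 and 0.929).

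**Figure D3:**
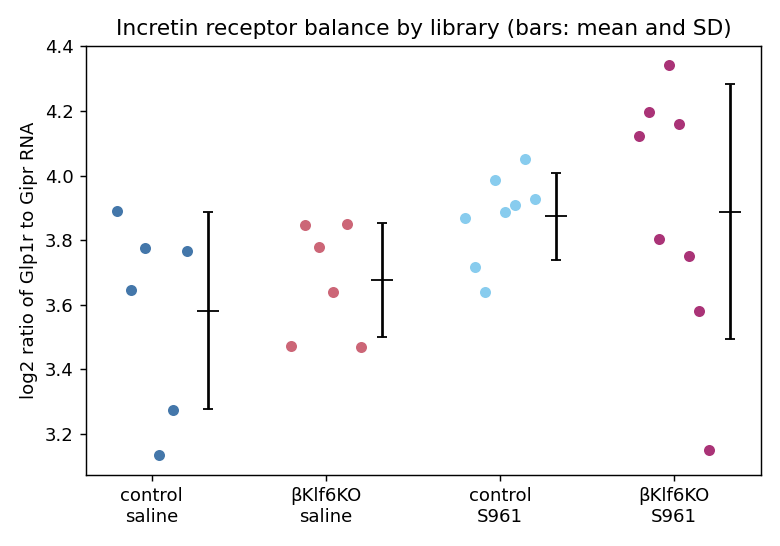
The y axis gives the log2 ratio of Glp1r to Gipr CPM and the x axis the 4 labelled groups; points are libraries, and the black marks beside them are group means with SD. Means were 3.58 in control saline and 3.87 in control S961 libraries, whose ranges overlap, and βKlf6KO S961 libraries spread from 3.15 to 4.34.

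Within groups, some receptors varied together from library to library. After each value was taken as its deviation from its group mean, Glp1r and Ffar1 had a Pearson r of 0.86 (Spearman 0.86, 28 libraries), Gcgr and Sstr3 0.92 (Spearman 0.80) and Gipr and Sstr3 0.83 (Spearman 0.74). Gpr119 and Cckar varied in opposite directions, at -0.80 (Spearman -0.75). These are descriptions over the same 28 libraries, which share their depth, scaling and cell mixture.

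The DNA ahead of Glp1r and Ffar1 is shown because these 2 genes varied together most closely by rank and yet differ in base composition there. RefSeq windows (GRCm38.p6) were matched for 7 of the 10 genes, and none was used for Gipr, Cckar and Galr1. The sequences run 5′ to 3′ on the gene's strand, from 250 bases before the RefSeq start to the last base before the GENCODE gene start. Capitals mark motif matches, searched on either strand. One motif was the GC box, spelled GGGCGG. Another was the CACCC box, named after its letters. The last was a half-site of the cyclic AMP response element, spelled TGACG. KLF-family factors are known to bind GC and CACCC boxes. The Glp1r window is chr17:30901617-30901816, plus strand, and the Ffar1 window chr7:30861565-30861720, minus strand.
Glp1r: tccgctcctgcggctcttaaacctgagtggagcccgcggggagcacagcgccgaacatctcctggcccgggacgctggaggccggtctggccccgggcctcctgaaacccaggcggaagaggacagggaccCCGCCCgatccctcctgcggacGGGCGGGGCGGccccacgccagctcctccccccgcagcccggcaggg
Ffar1: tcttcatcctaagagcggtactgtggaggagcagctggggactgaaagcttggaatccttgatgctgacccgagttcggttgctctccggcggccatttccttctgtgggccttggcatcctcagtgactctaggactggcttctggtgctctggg
The Glp1r window of 200 bases was 75.0% G or C and held 3 GC boxes, of which a pair overlap by 1 base, and no CACCC box or half-site. Of 32851 promoter windows of that length, 24.6% held a GC box, 44.4% a CACCC box and 12.7% a half-site. The Ffar1 window of 156 bases was 57.1% G or C and held none of these letters, which 17.5%, 36.4% and 8.76% of windows of its length held. A match is a description of the sequence only.

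Variation along the first principal component of all libraries, which held 54.9% of the variance, was large for some receptors and small for others. The libraries highest on it were control S961 replicates 2 and 8 and control saline replicate 4. Relations with it were computed for all 10 receptors over 28 libraries as deviations from group means, with p-values from 100000 permutations adjusted over the 10. The share of all genes related as closely to it was not computed. These relations cannot therefore be read as particular to the receptors. Gcgr fell along it with a Pearson r of -0.96 and a Spearman rho of -0.92 (permutation p = 1e-05 for both, the smallest that could be reached, adjusted 2.5e-05 and 5e-05), and r was -0.94 without the farthest pair of libraries. Sstr3 fell with r = -0.89 and rho = -0.77 (permutation p = 1e-05 for both, adjusted 2.5e-05 and 5e-05), and r was -0.85 without that pair. Galr1 rose with r = 0.86 and rho = 0.80 (permutation p = 1e-05 and 2e-05, adjusted 2.5e-05 and 5e-05), and r was 0.72 without it.

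Gipr fell along the component with r = -0.76 and rho = -0.75 (permutation p = 1e-05 and 2e-05, adjusted 2.5e-05 and 5e-05), and r was -0.75 without that pair of libraries. The relations of Glp1r (r = -0.58, rho = -0.38, permutation p = 0.00108 and 0.0480, adjusted 0.0018 and 0.0801) and Gpr119 (r = 0.59, rho = 0.45, permutation p = 0.00104 and 0.0175, adjusted 0.0018 and 0.0349) fell to -0.35 and 0.34 without it and so rested on those libraries in part. Adra2a had r = -0.08 and rho = -0.04 (permutation p = 0.681 and 0.859). With the component as a covariate, 6 of the 10 receptors passed for labelled genotype after S961. Galr1, Ffar1, Gipr, Glp1r and Sstr3 were lower and Cckbr higher, while 28.2% of all genes passed. The limit that the filter sets on Cckbr, given above, holds here too. Without the 3 libraries highest on the component, 5 passed, all lower, against 6.31% of all genes in either direction and 2.62% lower. In that fit Galr1 stood at -0.70 (adjusted p = 0.00650).

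**Figure D4:**
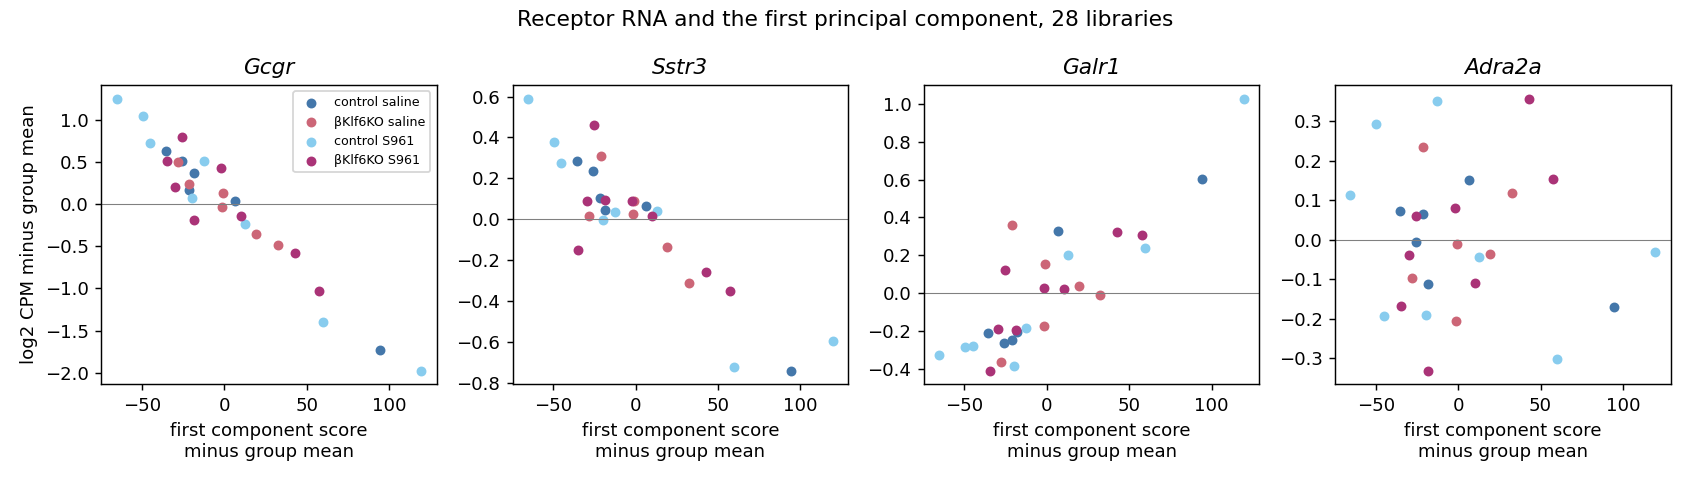
The x axis is each library's score on the first principal component and the y axis its log2 CPM, both minus the group mean, for 4 receptors and 28 libraries coloured by labelled group. Gcgr and Sstr3 fall (r = -0.96 and -0.89), Galr1 rises (r = 0.86) and Adra2a scatters (r = -0.08).

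Markers of cell types in the islet preparation moved with some receptors. The same deviations were related to the mean of 12 marker lists, 120 relations in all, with adjusted p over them. Of these, 16 passed by both Pearson's r and Spearman's rho: 5 with the β-cell list, 3 each with the PP-cell, acinar and ductal lists, 1 with the macrophage list and 1 with the lymphocyte list. The share of all genes related to these lists was not computed, so the count is not one particular to receptors. Several of these relations belong to Gcgr, Sstr3, Gipr and Galr1, which also followed the first component. Ffar1 and Glp1r rose with the mean of 11 β-cell markers other than the insulin genes, such as the transcription factor gene Pdx1 and the glucose transporter gene Slc2a2. For Ffar1, r was 0.75 and rho 0.71 (permutation p = 1e-05 and 5e-05, adjusted 1.2e-04 and 7.5e-04), and r was 0.63 without the farthest pair. For Glp1r, r was 0.67 and rho 0.65 (permutation p = 1.1e-04 and 2.3e-04, adjusted 0.0011 and 0.0023), and r was 0.55 without it. Sstr3 (r = 0.60, rho = 0.61, permutation p = 9.2e-04 and 8.6e-04, adjusted 0.00789 and 0.00737), Gipr (r = 0.57, rho = 0.52, permutation p = 0.00152 and 0.00496, adjusted 0.0101 and 0.0350) and Adra2a (r = 0.48, rho = 0.57, permutation p = 0.00933 and 0.0016, adjusted 0.0448 and 0.0128) rose with it too, with r of 0.49, 0.37 and 0.42 without the pair. For Galr1, r was 0.03 and rho 0.07 (permutation p = 0.895 and 0.728, adjusted 0.939 and 0.922; r = 0.043 without it).

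Of the 13 measured β-cell markers, 3 passed lower after saline and 7 after S961 in libraries labelled βKlf6KO. Among all 13591 genes, 94 passed lower after saline and 273 after S961. The insulin genes, also among the 13, did not pass. Ins1 stood at 0.55 ± 0.50 after saline and -0.31 ± 0.44 after S961 (limma adjusted p = 0.712 and 0.674). Ins2 stood at 0.21 ± 0.66 and 0.31 ± 0.58 (limma adjusted p = 0.930 and 0.752). After S961 Pdx1 stood at -0.47 ± 0.08 (adjusted p = 0.00450), the granule docking gene Sytl4 at -0.90 ± 0.16 (0.00511) and Slc2a2 at -0.88 ± 0.17 (0.00611). The mean log2 CPM of the 13 ran from 9.26 through a median of 9.72 to 10.3 in control S961 libraries and from 9.03 through 9.22 to 9.55 in βKlf6KO S961 libraries, and no marker was at 0 reads. With the mean of the 11 as a covariate, the S961 difference was 0.061 for Ffar1, 0.35 for Glp1r and 0.087 for Gipr, each opposite in sign to the value without it and none passing. That covariate is itself lower in βKlf6KO S961 libraries.

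**Figure D5:**
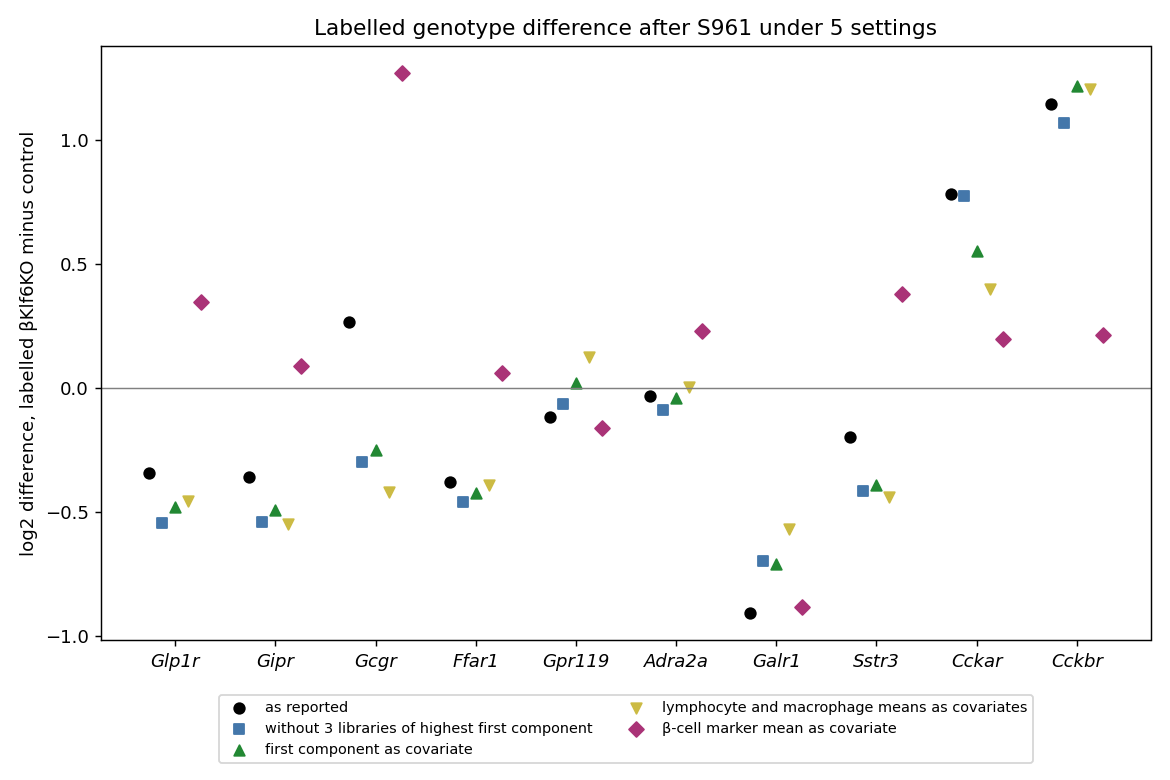
The y axis gives the log2 difference after S961, libraries labelled βKlf6KO minus control, for each receptor (x axis), with 1 marker per setting. Galr1 lies between -0.91 and -0.57 in all 5 settings, while Ffar1, Glp1r and Gipr lie below 0 in 4 and above 0 with the β-cell marker mean as a covariate.

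The closest relations of the 120 were those of Gcgr and Sstr3 in the positive direction with the mean of 5 markers of PP cells, the islet cells that make pancreatic polypeptide. For Gcgr, r was 0.87 and rho 0.82, and for Sstr3 r was 0.86 and rho 0.83 (permutation p = 1e-05 for all 4, adjusted 1.2e-04 and 2e-04 each; r = 0.84 and 0.82 without the farthest pair). Gipr rose with the same list (r = 0.78, rho = 0.68, permutation p = 1e-05 and 1.5e-04, adjusted 1.2e-04 and 0.00164; r = 0.67 without it). These are the receptors that fell most closely along the first component. The list summed to 651 to 4022 CPM in control S961 and 973 to 3540 CPM in βKlf6KO S961 libraries, no gene of it was at 0 reads, and 0 of its 5 genes passed for labelled genotype under either treatment. Galr1 rose with the δ-cell list by r alone (r = 0.62, rho = 0.49, permutation p = 5.6e-04 and 0.0082, adjusted 0.00517 and 0.0511), and r was 0.32 without the farthest pair. Ffar1 fell with the mean of the 5 lymphocyte markers that passed the filter, a list of low counts (r = -0.58, rho = -0.60, permutation p = 0.00126 and 7.6e-04, adjusted 0.00889 and 0.00702; r = -0.56 without the pair).

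Cckar, known for its high level in acinar cells of the mouse exocrine pancreas, rose with acinar and ductal markers. With 12 acinar markers r was 0.77 and rho 0.77 (permutation p = 2e-05 and 1e-05, adjusted 2.18e-04 and 2e-04; r = 0.67 without the farthest pair). With 10 ductal markers r was 0.80 and rho 0.77 (permutation p = 1e-05 for both, adjusted 1.2e-04 and 2e-04; r = 0.75 without that pair). Gpr119 fell with both lists (r = -0.79 and -0.83, rho = -0.78 and -0.81, permutation p = 1e-05 for all 4, adjusted 1.2e-04 and 2e-04 each; r = -0.73 and -0.79 without the farthest pair).

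Galr1 also fell with the acinar list (r = -0.76, rho = -0.67, permutation p = 1e-05 and 1.5e-04, adjusted 1.2e-04 and 0.00164), the ductal list (r = -0.82, rho = -0.73, permutation p = 1e-05 and 2e-05, adjusted 1.2e-04 and 3.43e-04) and the macrophage list (r = -0.72, rho = -0.69, permutation p = 1e-05 and 6e-05, adjusted 1.2e-04 and 8e-04). Without the farthest pair these r were -0.62, -0.71 and -0.69. After S961, 1 of 12 acinar markers passed higher in βKlf6KO libraries (Try5, a trypsin gene, 1.45 ± 0.34, adjusted p = 0.0198). Among ductal markers 1 of 10 passed (Spp1, 1.16 ± 0.21, adjusted p = 0.00502), and among macrophage markers 1 of 10 (Cd14, 1.09 ± 0.29, adjusted p = 0.0332). Of all 13591 genes, 320 passed higher in that comparison. The 13 acinar markers summed to 5946 to 40974 CPM in control S961 and 27443 to 109729 CPM in βKlf6KO S961 libraries. The 10 ductal markers summed to 684 to 2746 and 2020 to 6319 CPM, and the 11 macrophage markers to 74.6 to 159 and 99.2 to 353 CPM, with none of these 3 lists' genes at 0 reads in the S961 libraries. The 8 lymphocyte markers, counting those that the filter removed, summed to 1.52 to 12.8 and 1.49 to 27.6 CPM. Of the 8, 4 were at 0 reads in some library of each S961 group. The part of the acinar and ductal markers in the Galr1 difference was not tested.

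Markers of fibroblasts and stellate cells moved with the label, although none of their 10 relations with the receptors passed. After S961, 4 of 10 passed higher in βKlf6KO libraries, against 4.36% of all genes. These were the collagen genes Col1a1 (1.79 ± 0.41, adjusted p = 0.0190), Col1a2 (1.57 ± 0.33, 0.0111) and Col3a1 (1.40 ± 0.31, 0.0171) and the smooth muscle actin gene Acta2 (1.80 ± 0.39, 0.0145). After saline 2 of 10 passed higher, against 2.78% of all genes. They were Col3a1 at 1.44 ± 0.36 (adjusted p = 0.0253) and Col1a2 (adjusted p = 0.0265). The 10 markers summed to 46.1 to 102 CPM in control S961 and 82.2 to 155 CPM in βKlf6KO S961 libraries, and none was at 0 reads. Of 15 proliferation markers, 12 passed higher in βKlf6KO libraries after saline and 5 after S961 (Ccnb1, Ccna2, Cdk1, Birc5 and Bub1, at 1.51 to 1.96), with 0 of 10 relations to the receptors passing. Among all 13591 genes, 284 passed higher after saline and 320 after S961. The part of these markers in the receptor differences was not tested.

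By the likeness rule, the genes whose deviations tracked each receptor most closely over the 28 libraries, where the mean reached 4 CPM, were as follows, as a description with no test. Glp1r was most like Pi4ka (r = 0.96), Disp2 (0.95) and Cds2 (0.93). Gipr was most like Mypop (0.89), Jakmip1 (0.88) and Cltb (0.88), and Gcgr like Gpd1, B9d2 and Rtn2 (0.99 each). Gcgr also had the closest relation of the 10 to the first component.

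Ffar1 was most like Synrg (0.90), Phactr1 (0.89) and March4 (0.87), and Gpr119 like Sgtb (0.89), B3galnt1 (0.87) and Hepacam2 (0.86). Galr1 was most like Armcx2 (0.96), Lman1 (0.96) and Uso1 (0.95), of which the last 2 encode proteins of transport between the endoplasmic reticulum and Golgi. Sstr3 was most like Snph (0.98), Pnmal2 (0.97) and Ambra1 (0.97). Adra2a was most like Pip5k1b (0.85), Fitm2 (0.84) and Slc46a3 (0.84). Cckar was most like Ptgr1 (0.94), Krt23 (0.92) and Sprr1a (0.90).

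Among ligands of these and related receptors, 0 of 12 tested passed after saline (2.78% of all genes) and 1 after S961 (4.36%). This was Gast, the gene of gastrin, the ligand of Cckbr, at 1.78 ± 0.50 higher in libraries labelled βKlf6KO (adjusted p = 0.0446), with 1.71 ± 0.58 after saline (adjusted p = 0.121). The median over the 12 was 0.02 after saline and 0.29 after S961.

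Of 34 other islet G protein-coupled receptors tested, 1 passed under each treatment, against 2.78% of all genes after saline and 4.36% after S961. The same gene was lower in libraries labelled βKlf6KO both times. It was Chrm3, the M3 muscarinic acetylcholine receptor gene, which mediates vagal stimulation of insulin release, at -0.32 ± 0.09 after saline (adjusted p = 0.0402) and -0.33 ± 0.07 after S961 (adjusted p = 0.0178). The list's medians were 0.04 and 0.06, beside -0.00050 and 0.02 over all genes.

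Downstream of the receptors, 0 of 62 genes of G proteins, cyclic AMP enzymes and receptor desensitisation passed after saline, against 2.78% of all genes. The smallest p was that of the adenylyl cyclase gene Adcy7, at 1.23 ± 0.35 (adjusted p = 0.0520). After S961, 1 passed higher and 1 lower, against 4.36% of all genes in either direction. Adcy1, another adenylyl cyclase gene, stood at 1.07 ± 0.27 (adjusted p = 0.0291), and Prkca, which encodes protein kinase C alpha on the Gq branch, at -0.55 ± 0.15 (adjusted p = 0.0374). The list's medians were -0.01 under both treatments. Of 17 genes of the cyclic AMP response, 0 passed after saline, where Fos was closest at 1.06 ± 0.31 (adjusted p = 0.0622). After S961 the coactivator gene Ep300 passed, at -0.40 ± 0.12 (adjusted p = 0.0466), against 4.36% of all genes.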

How the data were processed

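Islet RNA of 28 mice was measured as described above. The deposited values are log2 CPM in 1 table of the authors, made with STAR 2.5.3a, HTSeq 0.9.1 and edgeR on GRCm38, per the submitters' processing notes. Undoing that scale, with 0.5 added per count, gave whole reads within 0.05 for 100% of values. A count of 0 allows 3 reads, or 0.0685 to 0.105 CPM, for counting error only.

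limma 3.58.1 in R 4.3.3 fitted 1 mean per group over the 28 libraries, on the 13591 genes kept (628 were removed), with moderated variances that follow intensity. Adjusted p-values are Benjamini-Hochberg over all genes kept, and a call is an adjusted p below 0.05. The Glp1r to Gipr ratio was tested by exact two-sided permutation in Python 3.11.15 with scipy 1.17.1. The fit was tested on simulated data.

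The receptors and all gene lists were chosen with earlier results of these data known. Named genes were the 10 receptors, Klf6, Ins1 and Ins2, and, per list and comparison, up to 3 called members of smallest p, or 1 where none was called. Mki67 was added after its values were seen. Not every gene under this rule is given: for marker lists only those beside a result are, and list calls over both treatments are left out. Col1a1, Ccnb1 and Ccna2 are named beyond it. Among α-cell markers, Gc passed higher in libraries labelled βKlf6KO after saline (1.79) and S961 (1.20). Slc7a2 passed lower after S961 (-0.58). The likeness rule took the 3 genes of highest Pearson r. Replicate numbers did not pair libraries: 38 same-numbered pairs had a median correlation of deviations of -0.07, and 13 exceeded 0.1. Levels per kilobase used merged exons of GENCODE M21. No source used here gives the read assignment by strand. Since mice and libraries correspond, p-values measure the spread between mice.

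Alternatives were other filters and floors, moderation, weights, scalings, lane, replicate number, the first component or marker means as covariates, and single libraries left out. The genotype comparison over both treatments and the fit without 2 control S961 libraries of highest Mki67 were chosen after seeing the data. Levels of single lymphocyte markers are not reported here.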

Additional observations from a re-analysis of the deposited data

Results flagged for a closer look

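Among the 44 groups of libraries examined, for the 10 receptors and the Glp1r to Gipr ratio, 3 had a single library far from the rest by Dixon's criterion, which chance alone meets in about 1 group in 20. Gcgr in control saline replicate 4 stood at 1.19 log2 CPM, with the next lowest at 2.96. Sstr3 in the same library stood at 5.81, with the next lowest at 6.59. Galr1 in control S961 replicate 2 stood at 6.23, with the next highest at 5.44. Both libraries were among the 3 highest on the first principal component.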

How the results depend on the processing

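All 10 receptors were recomputed for the labelled genotype after each treatment, under 18 settings and with each of 28 libraries left out in turn. Cckbr had 17 settings, since the filter at 5 CPM removed it. For the S961 comparisons and over both treatments, single values were tallied only for some receptors, and these also enter the totals. Values below are labelled genotype differences in log2 units or numbers of receptors passing limma's test. Across 1325 recomputed values of single receptors, 1246 kept their sign and side of the threshold, 26 passed only under the alternative, 24 passed only as reported and 29 changed sign, none of the last passing. No receptor passed for S961 in either labelled genotype, or for the difference of responses, under any setting. The share of all genes passing in the same fit is given in parentheses. After saline, against 0 as reported (2.78%), 4 receptors passed with library weights (22.2%), 2 with quantile normalization (2.18%), 1 without the 3 libraries highest on the first component (5.08%), 3 with that component as a covariate (20.8%) and 0 to 1 with single libraries left out. After S961, against 2 (4.36%), the number was 1 with only the groups compared (0.258%), 1 with no scaling factor (2.98%), 5 without the 3 libraries (6.31%), 6 with the component (28.2%), 0 with lymphocyte and macrophage means (0.397%), 0 with the β-cell mean (0%), 1 without the 2 control S961 libraries of highest Mki67 (8.19%), and 1 to 4 with single libraries left out (4 without control S961 replicate 8). With quantile normalization it stayed at 2 (2.91%), but Gipr passed (-0.52, adjusted p = 0.00723) and Ffar1 did not (-0.26, adjusted p = 0.259). Over both treatments, against 3 (15.3%), it was 5 with library weights (28.3%), 1 with no scaling factor (12.3%), 5 without the 3 libraries (18.7%), 5 with the component (41.7%), 1 with the lymphocyte and macrophage means (1.76%) and 0 with the β-cell mean (0.00736%).

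Of the differences that changed sign, only those of Ffar1 after S961 and over both treatments had passed as reported. With the β-cell mean as a covariate the values after saline were 0.17 for Glp1r, 0.11 for Ffar1, 0.30 for Sstr3 and -0.0063 for Cckar. After S961 they were 0.35 for Glp1r, 0.087 for Gipr, 0.061 for Ffar1, 0.38 for Sstr3 and 0.23 for Adra2a, and over both treatments Ffar1 had 0.086. With the lymphocyte and macrophage means they were -0.38 for Gcgr and -0.30 for Cckar after saline, and -0.42 for Gcgr, 0.13 for Gpr119 and 0.0034 for Adra2a after S961. With the component Gcgr had -0.16 after saline and -0.25 after S961, and Gpr119 0.018 after S961. Without the 3 libraries Gcgr had -0.11 and -0.30, and with library weights -0.14 after saline. Adra2a after S961 had 0.040 with quantile normalization, 0.010 with no scaling factor and 0.075 without the 2 libraries of highest Mki67. With single libraries left out Gcgr ranged from -0.11 to 0.36 after saline and from -0.018 to 0.44 after S961, and Adra2a after S961 from -0.084 to 0.017. The cause was not tested.

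The labelled genotype difference of the Glp1r to Gipr ratio after S961 was -0.0031 without the 3 libraries and -0.050 to 0.12 with single libraries left out. The S961 difference in control libraries was 0.20 to 0.35 with single libraries left out. With the replicate number as a block, Galr1 (adjusted p = 0.0123) and Ffar1 (adjusted p = 0.0318) still passed after S961, and no receptor gained or lost a call in any comparison under that replicate block. Depth limits Cckbr, at 4 to 48 reads a library, and no other receptor had fewer than 48 reads.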
